A study of Mus musculus with 234 samples.

Results

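The genes described here are 9 enzymes of the tricarboxylic acid (TCA) cycle and its malate dehydrogenase partner in the cytosol: *Cs*, *Idh2*, *Idh3a*, *Idh3b*, *Idh3g*, *Ogdh*, *Sucla2*, *Mdh1* and *Mdh2*. They were taken by name from the deposited count table. Each name matched 1 row, and the 9 rows stand among 55538 features, of which 23664 had a count in at least 1 cell. All 9 held enough counts to be tested in every comparison.

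Single cardiomyocytes (CMs) were hand-picked from dissociated hearts and sequenced with SMART-seq2, which covers full-length transcripts and uses no molecular identifiers. The table holds 234 cells of 5 mice. The controls were M26, with 24 cells, and M73, with 9 cells, and their strain label is C57BL/6. The 2 homozygous PGKcre:BAG3P209L animals were M25, with 21 bright and 18 dim cells, and M116, with 59 bright and 50 dim cells. A single heterozygous animal, M72, gave 27 cells labelled bright and 26 labelled dim. In these animals a ubiquitous promoter drives human BAG3 with the P209L exchange fused to eGFP, once PGK-Cre has removed a stop cassette, and bright and dim refer to the eGFP fluorescence of a cell. Per the study's methods the homozygous mice carried both transgene alleles with 1 or both stop cassettes deleted, the controls were siblings that were wild type or carried Cre or the silent transgene alone, the background was mixed, and the mice were 2 weeks old; the age of mouse M72 is not given in the sources used here. BAG3 is a co-chaperone that keeps the contractile apparatus of muscle in repair, and the P209L form causes myopathy in patients. With 2 mice per group and 1 heterozygous mouse, the animal and not the cell was treated as the replicate, and the cells of a mouse that shared a brightness class were pooled by adding their counts, which gave 8 sums.

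The TCA cycle runs in the mitochondrial matrix. It oxidizes the acetyl groups that come from fatty acids and pyruvate and passes the electrons, as NADH and reduced flavin, to the respiratory chain. The heart depends on it throughout, and around and after birth CMs fill with mitochondria as they turn from glucose and lactate towards fatty acids. Citrate synthase opens the cycle, isocitrate dehydrogenase and 2-oxoglutarate dehydrogenase are its regulated oxidative steps, succinyl-CoA ligase makes a nucleoside triphosphate, and malate dehydrogenase closes it.

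A cell held between 487 and 1392253 counts (median 711527), and a sum between 4096609 counts (mouse M73) and 40508124 counts (bright CMs of mouse M116). All 8 CM markers had counts in every sum, at 48651 to 60735 CPM together (counts per 1000000 counts of a sum), while markers of 4 other cell types summed to 0.264 to 2537 CPM per type. The highest of these was the fibroblast list in the bright CMs of mouse M25, where 1 well held 50104 CPM of fibroblast markers. That well and 2 others of the same sum had at most 4447 CPM of CM markers, against at least 27224 CPM in the other 231 wells, and their 9 enzymes together reached 109, 151 and 1367 CPM. The 7 immune markers summed to 73.7 and 64.4 CPM in the dim CMs of mice M25 and M116, 0.264 and 2.0 CPM in their bright CMs and 3.25 to 25.1 CPM in the other sums, and the 7 endothelial markers to 226 and 200 CPM in dim against 82.9 and 91.3 CPM in bright CMs. Endothelial markers were at 77.8 and 161 CPM in control mice M26 and M73, and at 110 and 196 CPM in mouse M72. The part of these markers in differences between dim and control CMs was not tested. Transcripts and rRNAs of the mitochondrial genome took 31.7% of the counts in mouse M73 and 24.7% to 29.1% in the other sums. The transgene feature hBAG separated the homozygous groups from the controls, with 294 and 233 CPM in bright, 10.7 and 99.6 CPM in dim and 0.408 and 0.488 CPM in control CMs. In mouse M72 it went against the brightness labels, with 105 CPM in the cells labelled bright and 251 CPM in those labelled dim. By the names of the libraries, mice M25 and M26 shared a library set (GL-9122b), mice M72 and M73 shared another (GL9989-1), and mouse M116 had its own 2 sets (GL9989-2 and GL9989-3).

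The levels given below are normalized CPM, that is, CPM of a sum after TMM scaling, which sets the bulk of genes equal between sums. Comparisons rest on edgeR's quasi-likelihood test fitted over all genes, with Benjamini-Hochberg adjustment over all of them, and a log2 fold change of 1 is a doubling. In bulk sums like these, fewer transcripts per cell and fewer reads drawn from a cell cannot be told apart.

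None of the 9 enzymes passed an adjusted p of 0.05 in bright against control, dim against control or bright against dim CMs. DESeq2 also called 0 of 9 in each, where it called 0.869%, 0.451% and 0.662% of all genes. The count without adjustment was 0 of 9 with either tool, where 6.55%, 6.22% and 4.12% of all genes had an unadjusted p under 0.05 with edgeR and 8.31%, 7.64% and 5.86% with DESeq2. With the animal as a block in bright against dim CMs, edgeR gave 1 of 9 (*Sucla2*) and 468 of 13439 genes. For adjusted p-values from edgeR the background was 0.0164% of 12203 genes for bright against control CMs (2 genes, the 2 transgene features), 0% of 12195 for dim against control CMs and 0% of 13439 for bright against dim CMs. With 2 mice per group the 95% intervals of the enzymes, shown in the plot of log2 differences, were wide, and the widest of them, that of *Cs* in dim against control CMs, ran from -0.80 to 1.13. An adjusted p above 0.05 therefore does not show that levels were equal.

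**Figure D1:**
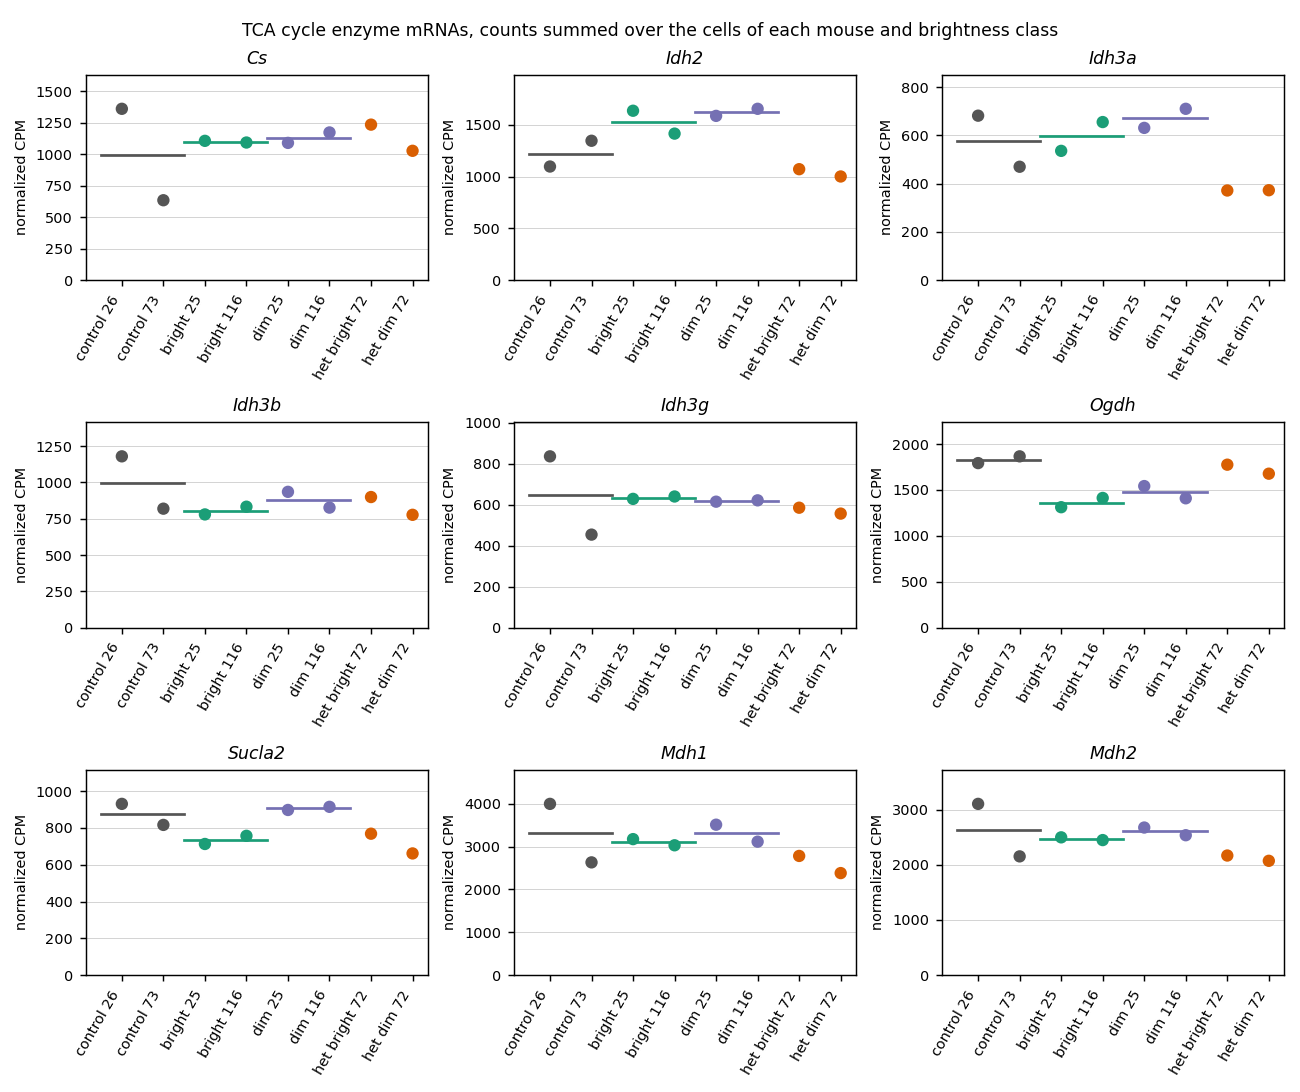
Level of each enzyme mRNA in normalized CPM (vertical axes start at 0) in the 8 sums: control mice M26 and M73, bright and dim CMs of homozygous mice M25 and M116, and CMs labelled bright and dim of heterozygous mouse M72. Points are sums and horizontal lines are means of 2 mice. *Ogdh* lies lower and *Idh2* higher in all 4 homozygous sums than in both control sums, and for *Cs* and *Idh3g* the 2 control mice lie farther apart than the homozygous mice.

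Citrate synthase (*Cs*) joins acetyl-CoA to oxaloacetate. Its level was 1362 normalized CPM in control mouse M26 and 635 in control mouse M73, 1107 and 1094 in the bright CMs of homozygous mice M25 and M116, and 1091 and 1174 in their dim CMs. The controls enclosed all homozygous values: they differed by 2.14 times, and the bright CMs of the 2 homozygous mice by 1.01 times. The log2 fold change was 0.13 in bright against control CMs (standard error 0.38, 95% interval -0.80 to 1.06, adjusted p = 0.98 from edgeR). It was -0.30 without control mouse M73 and 0.76 without control mouse M26. Mouse M25 lay 0.30 below mouse M26 of the same library set on the log2 scale (a difference of -0.30) and mouse M116 lay 0.78 above mouse M73.

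Isocitrate is oxidized by 2 kinds of enzyme in mitochondria, the NADP-dependent *Idh2*, which supplies reducing power against oxidants, and the NAD-dependent enzyme of the cycle proper, built from the catalytic subunit *Idh3a* with *Idh3b* and the regulatory subunit *Idh3g*. *Idh2* reached 1098 and 1347 normalized CPM in control mice M26 and M73, 1637 and 1416 in the bright CMs of homozygous mice M25 and M116, and 1587 and 1655 in their dim CMs. All 4 homozygous sums exceeded both controls. Both sums of a group above both controls were found for 24.6% of all genes in bright and 24.1% in dim CMs, so that order is common in these libraries. The share of genes with all 4 sums above both controls was not computed. The log2 fold change of *Idh2* was 0.29 (standard error 0.27, 95% interval -0.37 to 0.96, adjusted p = 0.94 from edgeR) in bright and 0.39 (standard error 0.29, 95% interval -0.31 to 1.09, adjusted p = 0.99 from edgeR) in dim CMs. Homozygous minus control, it was positive between mice M26 and M25 of 1 library set (0.58 in bright and 0.53 in dim CMs) and between M116 and M73 (0.07 and 0.30), and in all 12 alternative settings of each comparison, where it ranged from 0.14 to 1.38 in bright and from 0.25 to 1.71 in dim CMs. In the heterozygous mouse *Idh2* was at 1072 and 1002 normalized CPM, under both controls.

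The subunits of the NAD-dependent enzyme had no such order. *Idh3a* was at 681 and 470 normalized CPM in control mice M26 and M73, 536 and 655 in bright and 631 and 710 in dim CMs of mice M25 and M116. *Idh3b* was at 1179 and 819 in the controls, 780 and 833 in bright and 935 and 826 in dim CMs, and *Idh3g* was at 837 and 454 in the controls, 629 and 641 in bright and 615 and 622 in dim CMs. For each subunit control mouse M26 held more than control mouse M73, by 1.45, 1.44 and 1.84 times, and at least 1 homozygous sum of either brightness lay between them. Log2 fold changes in bright against control CMs were 0.03 for *Idh3a* (standard error 0.30), -0.33 for *Idh3b* (standard error 0.28) and -0.04 for *Idh3g* (standard error 0.34), with adjusted p-values of 0.996, 0.94 and 0.996 from edgeR. In the heterozygous mouse *Idh3a* was at 371 and 373 normalized CPM, against 470 or more in the other 6 sums, and with 1 mouse this has no test.

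*Ogdh* encodes the E1 subunit of the 2-oxoglutarate dehydrogenase complex, which turns 2-oxoglutarate into succinyl-CoA. It was at 1792 and 1866 normalized CPM in control mice M26 and M73, at 1312 and 1413 in bright CMs and at 1542 and 1409 in dim CMs of mice M25 and M116. It was the member on which the controls were closest (0.961 times), and all 4 homozygous sums lay below both of them. Both sums of a group below both controls were found for 14.3% of all genes in bright and 13.7% in dim CMs, and the share with all 4 below was not computed. The log2 fold change was -0.45 (standard error 0.25, 95% interval -1.05 to 0.16, adjusted p = 0.87 from edgeR) in bright and -0.33 (standard error 0.28, 95% interval -1.0 to 0.35, adjusted p = 0.99 from edgeR) in dim CMs. Homozygous minus control, the difference in bright CMs was -0.45 between mice M26 and M25 and -0.40 between M116 and M73, and in dim CMs -0.22 and -0.41. Scaling by library size in place of TMM brought the fold changes to -0.12 and -0.03. Giving each cell equal weight turned them to 0.24 and 0.69, and with cells of at least 1000 detected genes alone equal weights gave -0.42 and -0.05. In the heterozygous mouse *Ogdh* was at 1775 and 1677 normalized CPM, which is less than in both controls and more than in the homozygous sums.

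**Figure D2:**
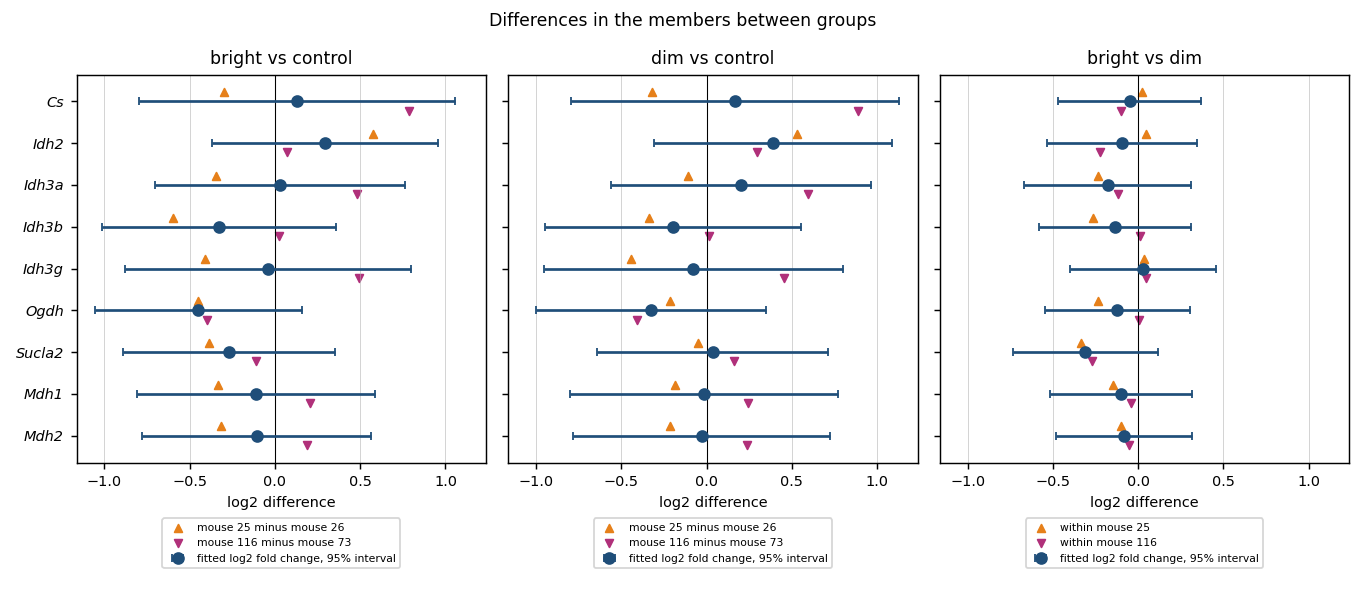
Log2 differences of the 9 enzymes in 3 comparisons (horizontal axis, log2 units). Circles are fitted log2 fold changes with 95% intervals, and triangles are differences between single mice: M25 minus M26 and M116 minus M73 for comparisons with controls, and bright minus dim CMs within mouse M25 and mouse M116 on the right. All intervals include 0, and the 2 triangles lie on opposite sides of 0 for *Cs*, the 3 *Idh3* subunits, *Mdh1* and *Mdh2* in both comparisons with controls.

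Because *Idh2* and *Ogdh* were the members whose homozygous sums stood apart from the controls, the sequence before their start sites is shown, from RefSeq's windows on GRCm38.p6 (8 of 9 members have a window in that table, and *Idh3a* has none). A window holds the 250 bases before a start. Bases in exons of GENCODE M21 were left out, so the *Idh2* stretch stops 42 bases before the start. For *Ogdh*, which has 6 start windows, the most upstream is given. The *Idh2* stretch is chr7:80115393-80115600 on the minus strand, and the *Ogdh* stretch is chr11:6291347-6291596 on the plus strand. Both are upstream of the transcript and outside exons. Capitals mark TGACGTCA, the cyclic AMP response element.
Idh2: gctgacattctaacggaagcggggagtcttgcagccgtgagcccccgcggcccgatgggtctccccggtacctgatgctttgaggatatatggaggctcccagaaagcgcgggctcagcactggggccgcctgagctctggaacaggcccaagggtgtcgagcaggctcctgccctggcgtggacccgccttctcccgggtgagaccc
Ogdh: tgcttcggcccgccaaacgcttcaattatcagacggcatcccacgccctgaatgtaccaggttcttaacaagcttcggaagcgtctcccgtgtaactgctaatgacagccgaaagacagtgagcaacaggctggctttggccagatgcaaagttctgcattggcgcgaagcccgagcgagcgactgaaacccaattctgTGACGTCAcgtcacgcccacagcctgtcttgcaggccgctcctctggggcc
A total of 3 motifs were searched on both strands. TGACGTCA was found in at least 1 window of *Ogdh* and of *Mdh2* and of 1.77% of all 27025 genes (1.55% of 32851 windows). GGGCGG, the GC box, was found in at least 1 window of 6 of the 8 members and of 35.4% of all genes (32.7% of windows), but not in the stretches printed. AAGGTCA, to which estrogen-related receptors bind, was found in windows of 0 members and of 4.70% of all genes (4.08% of windows). These are matches of letters, and binding was not measured.

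*Sucla2* encodes the ATP-forming β subunit of succinyl-CoA ligase. It was at 931 and 817 normalized CPM in control mice M26 and M73, 713 and 757 in bright CMs and 898 and 915 in dim CMs of mice M25 and M116. The bright CMs lay below both controls and below both dim sums, and the dim CMs lay among the controls. Both bright sums below both controls were found for 14.3% of all genes, as given for *Ogdh*. The log2 fold change was -0.27 in bright against control CMs (standard error 0.26, 95% interval -0.89 to 0.35, adjusted p = 0.94 from edgeR) and 0.04 in dim against control CMs (standard error 0.28, adjusted p = 0.999 from edgeR). The first of these turned to 0.049 with library size in place of TMM and to 0.73 with each cell weighted equally. In bright against dim CMs, which come from the same 2 animals, it was -0.31 (standard error 0.17, 95% interval -0.73 to 0.11, adjusted p = 0.999 from edgeR), with -0.33 within mouse M25 and -0.27 within mouse M116. That fit does not use the pairing by animal. With the animal as a block the standard error was 0.09 (unadjusted p = 0.0221 from edgeR), and 0 genes passed an adjusted p of 0.05. The difference of -0.31 was the largest of the 9 between bright and dim CMs. It was negative in all 12 alternative settings, from -0.75 to -0.26, and without the 3 wells low in CM markers it was -0.26. Immune and endothelial markers were higher in the dim than in the bright CMs of both mice, as given above, and their part in the differences between bright and dim CMs was not tested. A bright group below the dim group without overlap was found for 15.8% of all genes. *Suclg2*, the GTP-forming β subunit, was much lower per kilobase of transcript, at 18.3 to 27.6 normalized CPM per kb against 297 to 418 for *Sucla2*.

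Malate dehydrogenase exists as *Mdh2* in the matrix and *Mdh1* in the cytosol, where it works in the malate-aspartate shuttle that carries electrons of cytosolic NADH into mitochondria. These were the most abundant of the 9 mRNAs. *Mdh1* was at 3996 and 2631 normalized CPM in control mice M26 and M73, 3174 and 3030 in bright and 3510 and 3114 in dim CMs of mice M25 and M116. *Mdh2* was at 3103 and 2152 in the controls, 2497 and 2447 in bright and 2674 and 2535 in dim CMs. For both genes the 2 controls enclosed the 4 homozygous sums. Both had a log2 fold change of -0.11 in bright against control CMs (standard errors 0.29 and 0.28, adjusted p = 0.98 for both from edgeR), and of -0.02 and -0.03 in dim against control CMs.

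Across the 9 members, 3 had a positive and 6 a negative log2 fold change in bright against control CMs, with a median of -0.11, while the median of all genes tested was 0.11. In dim against control CMs 4 were positive and 5 negative (median -0.02, all genes 0.10), and in bright against dim CMs 1 was positive and 8 negative (median -0.10, all genes -0.01). The single positive value there was *Idh3g* at 0.03, and its bright sums lay above the dim sums by at most 0.04 in a mouse, an order found for 15.3% of all genes. *Mdh2* joined *Sucla2* in lying lower in both bright sums than in both dim sums, at a log2 fold change of -0.08 (standard error 0.16). Without the 3 wells low in CM markers the value was -0.03, and the bright CMs of mouse M25, at 2664 normalized CPM, lay above the dim CMs of mouse M116 at 2538. Library size in place of TMM moved the median of all genes in bright against control CMs from 0.11 to 0.41 and made 7 members positive and 2 negative (*Idh3b* and *Ogdh*). Each cell weighted equally gave 8 positive members, *Idh3b* and *Ogdh* among them, and 4 when cells under 1000 genes were also left out. *Idh2* was the member whose direction was the same in all 12 alternative settings of this comparison.

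For 6 of 9 members the direction differed between the 2 pairs of mice. Between mice M25 and M26, which shared a library set, bright minus control was negative for 8 of 9 enzymes (median -0.35), with *Idh2* the exception. Between M116 and M73, which were in different library sets, it was positive for 7 of 9 (median 0.19), and negative for *Ogdh* and *Sucla2*. The 9 enzymes together took 1.37% of the counts in control M26 and 0.942% in control M73, against 1.30% and 1.37% in bright CMs, 1.40% and 1.42% in dim CMs, and 1.11% and 1.09% in the heterozygous mouse. Mouse M73 and the heterozygous mouse, which shared a library set, were thus the lowest in the share of these enzymes (mitochondrial-genome counts there were 31.7% in mouse M73 and 29.1% and 27.1% in the heterozygous CMs, against 27.2% in mouse M26 and 24.7% to 27.0% in the homozygous CMs). Mouse M73 also had the fewest cells and the smallest total. The part of library set, cell number and animal in this gap was not tested.

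Ratios between enzymes within a sum do not depend on its scaling. *Mdh1* to *Mdh2* was 1.29 and 1.22 in control mice M26 and M73, 1.27 and 1.24 in bright, 1.31 and 1.23 in dim and 1.28 and 1.15 in heterozygous CMs. The means were 1.26 ± 0.0460 (SD, n = 2 mice) for control and 1.25 ± 0.0233 (SD, n = 2) for bright CMs. *Idh2* to the sum of the 3 *Idh3* subunits was 0.407 in mouse M26 and 0.772 in mouse M73, 0.842 and 0.665 in bright, 0.728 and 0.767 in dim and 0.577 and 0.587 in heterozygous CMs. Here mouse M26 stood apart from all other sums, and mouse M73 lay among the homozygous ones. *Sucla2* to *Suclg2* was 12.8 and 10.7 in the controls, 9.18 and 10.6 in bright, 9.65 and 10.4 in dim and 9.37 and 10.7 in heterozygous CMs. Its mean was 11.8 ± 1.45 (SD, n = 2) in control and 9.88 ± 0.998 (SD, n = 2) in bright CMs, and all 4 homozygous values lay under both controls. The 95% interval for counting error in mouse M73 alone, 9.47 to 12.2, covered every homozygous value except 9.18. On the log2 scale the difference between bright and control CMs was -0.25, and it was -0.12 without control mouse M26, -0.38 without control mouse M73 and -1.15 as a median over cells. The last value includes a median ratio of 38.3 in mouse M73, over the 7 cells that had both counts. Two-sided exact permutation tests gave p = 0.33 for *Sucla2* to *Suclg2* in both comparisons with controls, the lowest value possible with 2 mice in each group, and 0.67 or 1 for the other ratios. After adjustment over the 6 tests all were at 1.

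**Figure D3:**
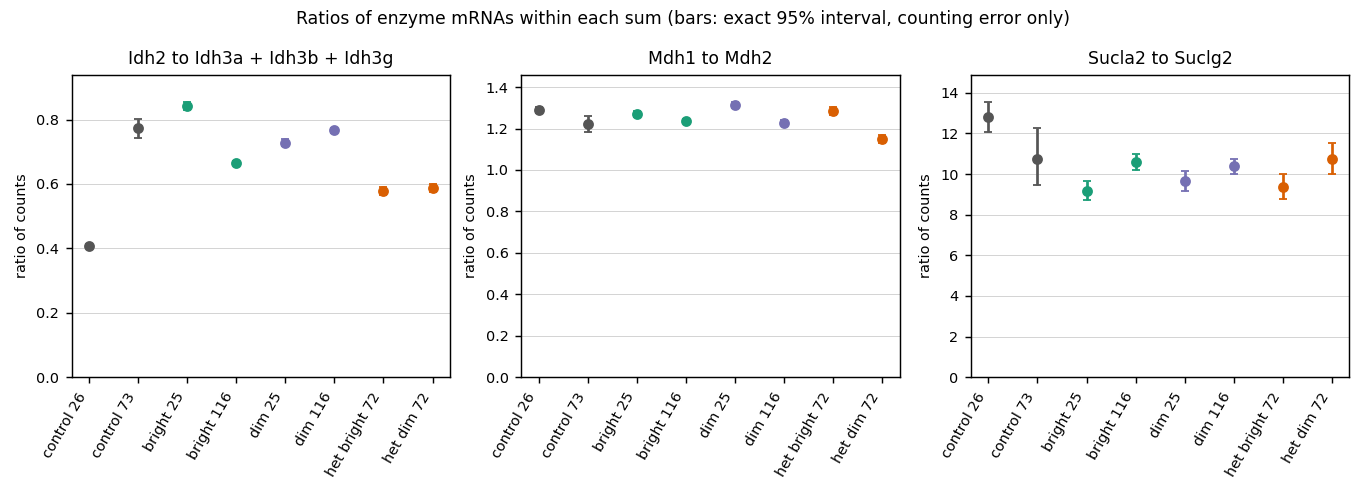
Ratio of counts within each of the 8 sums (vertical axes start at 0): *Idh2* to the sum of *Idh3a*, *Idh3b* and *Idh3g*, *Mdh1* to *Mdh2*, and *Sucla2* to *Suclg2*. Bars are exact 95% intervals for counting error only and are smaller than the point in some sums. *Mdh1* to *Mdh2* stays between 1.15 and 1.31, whereas *Idh2* to *Idh3* ranges from 0.407 in control mouse M26 to 0.842 in bright CMs of mouse M25.

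Compared with each other per kilobase of their principal transcript, *Mdh2* (1423 to 2131 normalized CPM per kb) and *Mdh1* (1122 to 1883) were the highest and *Idh3a* (155 to 295) was the lowest in all 8 sums. *Idh2* ranked next in 7 sums, and *Idh3b* in control mouse M26. *Idh3b*, *Idh3g* and *Idh3a* followed in this order in all 8 sums, so the mRNA of the catalytic subunit was the least abundant of the 3; with the union of all exons as length, *Idh3g* exceeded *Idh3b* in the bright CMs of mouse M25. *Cs*, *Ogdh* and *Sucla2* lay between 217 and 465 per kb and changed places between sums, so they have no fixed order. With that length *Mdh1* exceeded *Mdh2* in all 8 sums and *Idh3a* remained the lowest. *Mdh1* and *Idh3b* share 52 and 5 exon bases with genes on the opposite strand (*Wdpcp* and *Nop56*) in GENCODE M21, where reads cannot be assigned if the counting ignored strand.

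Of 9 other enzymes and subunits of the cycle (*Dlst*, *Dld*, *Suclg1*, *Suclg2*, *Sdha* to *Sdhd* and *Fh1*), 0 passed the test in any comparison with edgeR or DESeq2, and 0 had an unadjusted p under 0.05. In bright against control CMs 3 were positive and 6 negative, with a median log2 fold change of -0.019. *Sdha*, the flavoprotein of succinate dehydrogenase, had the highest value at 0.12 (standard error 0.28), and *Sdhc*, one of its membrane anchors, the lowest at -0.34 (standard error 0.31). 8 of these 9 were lower in bright CMs of mouse M25 than in mouse M26, and 6 of 9 were higher in bright CMs of mouse M116 than in mouse M73.

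Of the 12 genes that govern the entry of pyruvate (its carrier, the pyruvate dehydrogenase complex with its kinases and phosphatases, and pyruvate carboxylase), 0 passed the test in any comparison with edgeR or DESeq2. Without adjustment 0 and 1 had a p under 0.05 in bright against control, 1 and 1 in dim against control and 0 and 0 in bright against dim CMs. There were 5 positive and 7 negative in bright against control CMs (median -0.20). *Pdhx*, which anchors the E3 subunit in the complex, had the highest value at 0.68 (standard error 0.71), and *Pdpr*, a regulatory subunit of the phosphatase, the lowest at -2.07 (standard error 0.94, adjusted p = 0.83 from edgeR). In dim against control CMs *Pdpr* was at -2.25 (standard error 0.93, unadjusted p = 0.0484, adjusted p = 0.79 from edgeR). Both rested on mouse M73. *Pdhx* was at 31.6 normalized CPM there and at 161 in mouse M26 against 180 and 131 in bright CMs, and *Pdpr* was at 94.2 there and at 13.7 in mouse M26 against 13.8 and 12.7 in bright CMs.

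Of the 12 genes of the malate-aspartate shuttle and of the cytosolic counterparts of the cycle, 0 passed the test in any comparison with edgeR or DESeq2 (by each tool 1, 0 and 1 had an unadjusted p under 0.05 in bright against control, dim against control and bright against dim CMs), with 4 positive and 8 negative in bright against control CMs (median -0.25). *Got1*, the cytosolic aspartate aminotransferase of the shuttle, had the lowest value: it was at 671 and 507 normalized CPM in control mice M26 and M73, 359 and 383 in bright and 440 and 384 in dim CMs, a log2 fold change of -0.69 in bright against control CMs (standard error 0.28, unadjusted p = 0.0494, adjusted p = 0.76 from edgeR). All 4 homozygous sums lay below both controls, as did the heterozygous mouse with 309 and 265. Taken by group, both sums below both controls were found for 14.3% of all genes in bright and 13.7% in dim CMs. *Slc25a1*, the citrate carrier, had the highest value but only 23 and 0 counts in the controls and 6 and 132 counts in bright CMs, where a count of 0 allows up to 3, and no fold is given. *Idh1*, the cytosolic NADP-dependent isocitrate dehydrogenase, is named after its values were seen. It was lower in bright than in dim CMs of both mice, at 19.2 against 45.6 normalized CPM in mouse M25 and 21.3 against 35 in mouse M116, at a log2 fold change of -1.0 (standard error 0.31, unadjusted p = 0.0209, adjusted p = 0.999 from edgeR). The immune markers (73.7 and 64.4 CPM in dim against 0.264 and 2.0 CPM in bright CMs) and the endothelial markers (226 and 200 against 82.9 and 91.3 CPM) were lower in bright CMs too, and their part in the *Idh1* difference was not tested.

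In single cells the 9 mRNAs were present almost throughout. A count was found in 222 (*Idh3a*) to 233 (*Mdh1*) of the 234 cells. In the 217 cells with at least 1000 detected genes and CM markers, 8 of the 9 enzymes had a count in every cell and *Idh3g* in 215. In these cells the 9 enzymes together had a median of 13590 CPM in control M26 and of 9225 CPM in control M73, 14336 and 14058 CPM in bright and 13805 and 14355 CPM in dim CMs of M25 and M116, and 10904 and 10142 CPM in the heterozygous CMs labelled bright and dim. The ranges overlapped between all sums, with 5994 to 13300 CPM for M73 and 11444 to 15637 CPM for M26. These are CPM without TMM scaling. Within a sum the cell-to-cell coefficient of variation was smallest for *Mdh2* and *Mdh1* (medians over the 8 sums of 0.238 and 0.240) and largest for *Idh3g* and *Idh3a* (0.452 and 0.442), which are also the shallowest per cell, and counting error is part of these values.

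**Figure D4:**
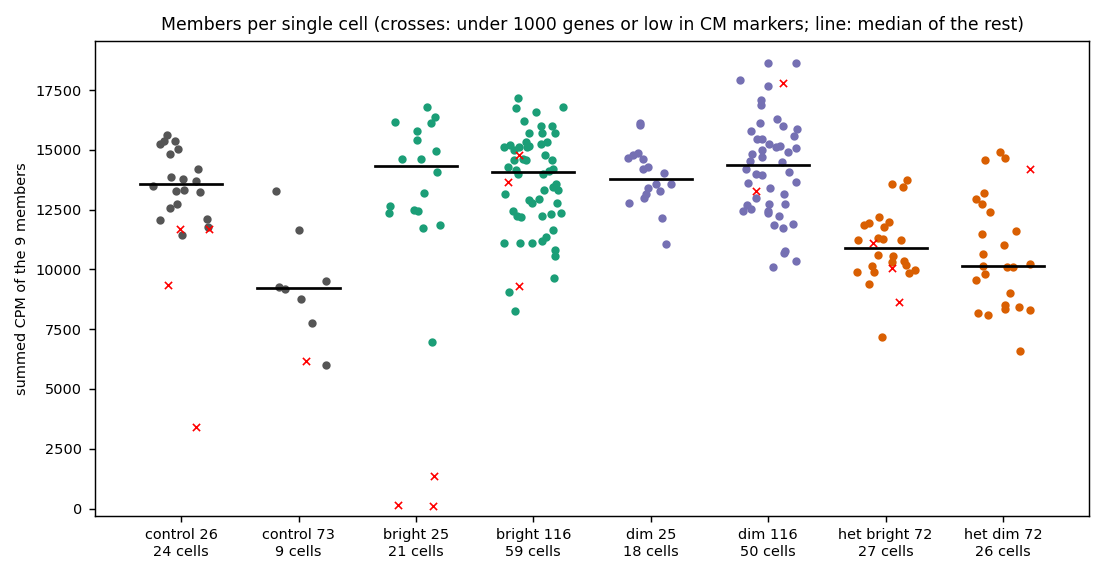
Summed CPM of the 9 enzymes in each of 234 cells (vertical axis), by mouse and brightness class. Dots are cells with at least 1000 detected genes and CM markers, lines their medians, and red crosses the other cells. Cells of control mouse M73 (median 9225 CPM) and of heterozygous mouse M72 (10904 and 10142 CPM) lie lower than those of control mouse M26 and of the homozygous mice (13590 to 14355 CPM), with overlap, and the 3 lowest crosses are wells of mouse M25 that were low in CM markers.

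Over the 217 cells, pairs of enzymes varied together weakly. The mean of Pearson's r within the 8 sums, on log2(CPM + 1), ranged from -0.05 to 0.36 over the 36 pairs, with a median of 0.15, and was positive for 34 pairs. The highest values were those of *Cs* with *Mdh1* (0.36), *Cs* with *Mdh2* (0.34), *Sucla2* with *Mdh1* (0.33) and *Mdh1* with *Mdh2* (0.33). The lowest were *Idh3a* with *Ogdh* (-0.05) and *Idh3a* with *Idh3b* (-0.04), although the latter encode subunits of one enzyme. Over all 234 cells these 2 pairs were at 0.43 and 0.47, the median pair was at 0.34, and the highest was *Ogdh* with *Sucla2* (0.60, against 0.11 over the 217 cells), so the order of the pairs depends on which wells are kept. The points are cells of 8 sums from 5 mice that share libraries and differ in depth, and r is given as a description.

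**Figure D5:**
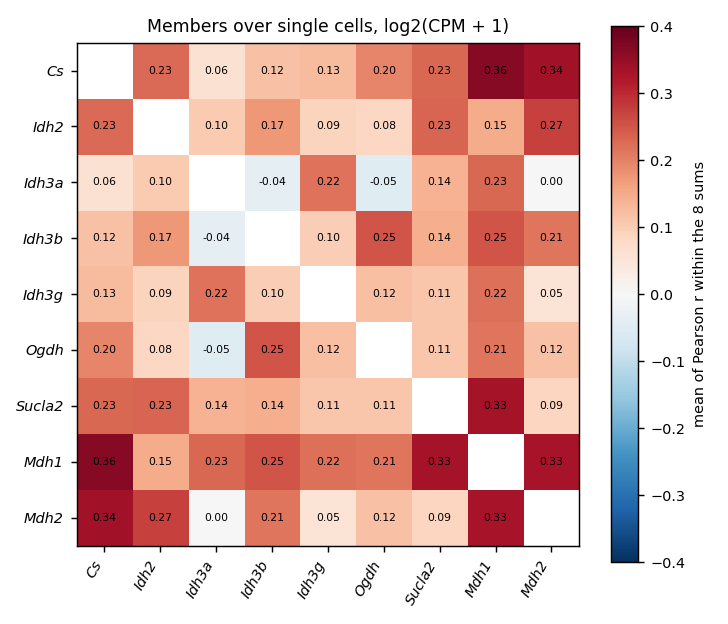
Mean of Pearson's r within the 8 sums for each pair of the 9 enzymes, over 217 single cells on the log2(CPM + 1) scale (color, -0.4 to 0.4; the number is printed in each square). The 4 warmest squares are those of *Cs* with *Mdh1* and *Mdh2* and of *Mdh1* with *Sucla2* and *Mdh2*, and *Idh3a* is near 0 with *Ogdh*, *Idh3b* and *Mdh2*.

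Among 2623 genes outside the lists that had a count in at least 50% of the cells of every sum, the 5 whose level over all 234 cells went most closely with the mean of the 9 enzymes were *Apoo*, a component of the inner-membrane organizing complex (mean r within the 8 sums 0.70), *Gm13910* (0.70), *Atp5g2*, a c-ring subunit gene of ATP synthase (0.68), *Cisd1*, an iron-sulfur protein of the outer mitochondrial membrane (0.68), and *Ghitm* (0.68), against a median gene at 0.38. The values were lower without the wells that had under 1000 detected genes or were low in CM markers: over the 217 cells these 5 genes had mean r of 0.40, 0.40, 0.20, 0.27 and 0.16, and the median gene 0.05. In those cells the highest were *Slc25a4*, the ADP/ATP carrier of heart (0.64), *COX1*, the mitochondrially encoded core of complex IV (0.57), *Atp5a1*, the catalytic-ring α subunit of ATP synthase (0.57), *Sod2*, the mitochondrial superoxide dismutase (0.54) and *Uqcrc1*, of complex III (0.54), which were named after their values were seen. Over these cells, r between hBAG and the mean of the 9 enzymes was 0.12 and 0.06 in bright and -0.20 and 0.13 in dim CMs of mice M25 and M116. It was -0.09 and 0.16 in the heterozygous CMs labelled bright and dim. Each value rests on 18 to 56 cells of 1 sum, and a relation to the transgene was not tested.

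The heterozygous mouse can be set beside control mouse M73 of the same library set, without a test. On the log2 scale its CMs labelled bright differed from that control by 0.96 for *Cs* and 0.37 for *Idh3g*, by -0.34 for *Idh3a* and -0.33 for *Idh2*, and by -0.09 to 0.13 for the other 5 enzymes. Those labelled dim differed by 0.69 and 0.29, by -0.33 and -0.43, and by -0.30 to -0.06. *Idh2*, higher than the controls in the homozygous sums, was thus lower in this mouse, and *Ogdh* differed from mouse M73 by -0.07 and -0.15.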

How the data were processed

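SMART-seq2 libraries of 234 hand-picked CMs of 5 mice were analysed. Per the study's methods, each cell was aligned with STAR to a mouse genome to which human BAG3 and eGFP sequences had been added. Reads per gene were taken from STAR's GeneCounts output, and the authors deposited them as raw counts, in whole numbers, for 55538 features. The genome build, annotation and strand column are not given in the sources used here, so positions and exon overlaps come from reference tables (RefSeq on GRCm38.p6 and GENCODE M21) that may differ from what was counted, and counts on genes with near-identical copies or opposite-strand neighbors are uncertain. A symbol repeats for 141 features, but for none of the genes named.

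From the deposited counts, sums per mouse and brightness class were computed. They were tested in R 4.3.3 with edgeR 4.0.16 (genes kept by filterByExpr, scaled by TMM, fitted by glmQLFit and tested by glmQLFTest, with Benjamini-Hochberg adjustment over all genes and a threshold of 0.05), using the sums of the compared groups only and no block. Tested on simulated counts of the same design, the fit recovered none of the log2 changes of 1 against controls and few between bright and dim CMs. Of log2 changes of 3 it recovered a minority, fewest against controls. Smaller changes, such as those fitted for the members, were not simulated. Standard errors were derived from the fold change and F statistic. Normalized CPM use 1 TMM scaling over the 8 sums, and levels per kb the longest APPRIS principal transcript of GENCODE M21. Ratios were tested with two-sided exact permutation tests over mice (scipy 1.17.1) and have exact Clopper-Pearson intervals, which cover counting error only. Mice M25 and M116 each gave bright and dim CMs, which pairs these sums by animal; over 13439 genes the differences between the mice in bright and in dim CMs had r = 0.08. Whether the cells of a mouse were handled as 1 preparation is not stated.

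The alternatives were DESeq2 1.42.0, library size, no filter, cells with at least 1000 genes, equal weight for each cell (limma 3.58.1 on mean log2(CPM + 1)), the library set (GL-9122b against GL9989) as a block, a replicate block for paired animals, and each sum left out; leaving out 3 wells with under 10000 CPM of CM markers, and equal weights in cells of at least 1000 genes, were added after seeing the data. The members, lists and rules were chosen with earlier results of these data known, and *Idh2*, *Idh3a* and *Mdh1* also stand in gene lists that the study drew from these cells, so nothing here is independent evidence for them. Named were the 9 members, the transgene, from each list any gene past the threshold and those with the highest and lowest log2 fold change in bright against control CMs, and the 5 genes most like the members' mean over cells. *Suclg2* was named for its ratio to *Sucla2*; *Idh1* and the 5 genes of the 217 cells were named after their values were seen. The tissue RNA-seq and proteomics were not analysed here, and 1 gene of the list of other cycle enzymes is not reported here.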

Additional observations from a re-analysis of the deposited data

Results flagged for a closer look

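The heterozygous mouse M72 entered no test, and its transgene signal exceeded that of the controls (0.408 and 0.488 CPM of hBAG). The CMs labelled bright held 105 CPM and those labelled dim 251 CPM of hBAG, and 62.1 and 208 CPM of the second transgene feature BAG-eGFP, the reverse of the order of the labels, and the 9 enzymes took 1.11% and 1.09% of their counts. No value of mouse M72 in the text is used to compare bright with dim CMs. No group had the 4 samples that a test for outlying samples needs.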

How the results depend on the processing

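In every alternative of every comparison 0 of the 9 enzymes passed an adjusted p of 0.05; the smallest adjusted p of a member was 0.14 (without control mouse M26). Of 324 alternative log2 fold changes of members, 275 kept their direction and 49 did not; *Idh2* against controls and *Sucla2*, *Idh3a*, *Idh3b*, *Ogdh*, *Mdh1* and *Mdh2* in bright against dim CMs kept it in all. The causes of these changes were not tested.

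In bright against control CMs, library size in place of TMM turned *Idh3g* to 0.26, *Sucla2* to 0.049, *Mdh1* to 0.19 and *Mdh2* to 0.20. Equal weight for each cell turned *Idh3b* to 0.55, *Idh3g* to 0.74, *Ogdh* to 0.24, *Sucla2* to 0.73 and *Mdh2* to 0.49. *Idh3g*, close to 0, also turned to 0.018 with the library set as a block, to 0.019 without the 3 wells low in CM markers and to 0.12 with equal weights in cells of at least 1000 genes. In dim against control CMs, library size turned *Idh3b* to 0.082, *Idh3g* to 0.20, *Mdh1* to 0.26 and *Mdh2* to 0.25, no filter turned *Mdh1* to 0.021 and *Mdh2* to 0.0091, and the library set as a block turned *Mdh1* to 0.011. Equal weights turned *Idh3b* to 1.02, *Idh3g* to 1.02, *Ogdh* to 0.69, *Mdh1* to 0.26 and *Mdh2* to 1.01, and in cells of at least 1000 genes *Idh3b* to 0.18, *Idh3g* to 0.38, *Mdh1* to 0.33 and *Mdh2* to 0.31. In bright against dim CMs, equal weights turned *Idh3g* to -0.28 and, in cells of at least 1000 genes, to -0.26, and leaving out the 3 wells turned *Cs* to 0.00380.

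With each sum left out in turn, the log2 fold change in bright against control CMs ran from -0.30 to 0.76 for *Cs*, -0.19 to 0.30 for *Idh3a*, -0.39 to 0.44 for *Idh3g*, -0.36 to 0.20 for *Mdh1* and -0.32 to 0.16 for *Mdh2*. For *Idh3b* it stayed negative, from -0.54 to -0.061. In dim against control CMs it ran from -0.27 to 0.82 for *Cs*, -0.029 to 0.50 for *Idh3a*, -0.43 to 0.088 for *Idh3b*, -0.44 to 0.43 for *Idh3g*, -0.044 to 0.13 for *Sucla2*, -0.28 to 0.32 for *Mdh1* and -0.26 to 0.26 for *Mdh2*, and in bright against dim CMs from -0.097 to 0.014 for *Cs* and -0.21 to 0.015 for *Idh2*. A lone sum in a group was assumed to vary like the other group.

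The number of all genes past the threshold in bright against control CMs (2) became 106 with DESeq2, 163 without a filter, 4 with equal weights, 10 with the library set as a block, and 0 to 41 with a sum left out (0 without control mouse M26, 15 and 41 without the bright CMs of mouse M25 and M116). In dim against control CMs (0) it became 55 with DESeq2, 58 without a filter, 1 with equal weights, 1 with equal weights in cells of at least 1000 genes, 12 with the library set as a block, and 3 to 827 with a sum left out (827 without control mouse M26). In bright against dim CMs (0) it became 89 with DESeq2, 217 without a filter, 2 with equal weights and 0 to 74 with a sum left out (74 without the bright CMs of mouse M116). With the replicate block for the paired animals it stayed at 0, with 468 genes at an unadjusted p under 0.05 against 554 without the block. In the paired fit 1 member, *Sucla2*, had an unadjusted p under 0.05 (log2 fold change -0.31, standard error 0.09, p = 0.0221, adjusted p = 1 from edgeR), and the block changed no call. Unadjusted p-values under 0.05 were also found with equal weights (limma), for 1 member in bright and 3 in dim against control CMs. Of all genes, 1140 of 12203 and 1322 of 12195 had such a value in these 2 fits.

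Of the log2 ratios against controls, *Idh2* to *Idh3* ran from -0.046 to 0.88 in bright and from -0.048 to 0.88 in dim CMs with a sum left out, and was negative without control mouse M26. *Mdh1* to *Mdh2*, near 0, ran from -0.038 to 0.037 in bright and from -0.031 to 0.065 in dim CMs, and as a median over cells was 0.07 in bright CMs. *Sucla2* to *Suclg2* was negative throughout, from -0.38 to -0.12 in bright and from -0.35 to -0.10 in dim CMs with a sum left out, and -1.15 and -1.05 as a median over cells. The members held 38591 counts together in the shallowest sum.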
